A study of Mus musculus with 483 samples.

Results

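The genes described here are 39 mouse genes of S phase and DNA replication, taken by name as a list. They were read from a table of 46078 genes in single cells, counted by treatment and run further on. All 39 counted as measured, meaning that at least 5% of the cells had a read of the gene, which held for 15204 genes of the table. Each cell was sorted as CD31+, kit+ and CD45- from the embryonic aorta with its surrounding gonads and mesonephros (AGM), the region in which the first hematopoietic stem cells arise from endothelium. The cells were labelled Ctrl or aDll4-treated. The labels do not explain aDll4, and the series title names the Notch ligand Dll4. They name no strain, genotype, age, embryo or culture, so a treatment stands for 1 sample here, the treatments were not tested against each other, and cells were not used as replicates.

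The labels call the cells hematopoietic stem cells and assign each to 1 of 7 clusters by a method abbreviated ICGS. Markers gave a wider picture. In clusters 1 to 3, 10 endothelial genes summed to between 5203 and 8047 CPM (each gene's reads scaled to the same library total) and 10 hematopoietic genes to between 102.1 and 234.5 CPM. In clusters 6 and 7, with 53 cells, the endothelial sum was 222.4 and 355 CPM and the hematopoietic sum 1786 and 2348 CPM. These clusters were unlike in other markers. Erythroid genes summed to 1033 CPM in cluster 6 and 216.2 CPM in cluster 7, and megakaryocyte genes to 371.3 and 10583 CPM. Clusters 4 and 5, with 22 and 13 cells, had mesenchymal sums of 1052 and 12696 CPM. Ptprc, which encodes CD45, had 0.13 CPM in Ctrl and 0.28 CPM in the treated group. Ctrl cells held 136928 to 2870618 reads assigned to genes and treated cells 123097 to 2451790, and the 39 genes took 0.467% and 0.511% of them. Library numbers in the labels fell into 2 blocks, below 20000 and above 22000, and were cut into 6 runs of 96 consecutive numbers, runs 1 to 4 in block 1 and runs 5 and 6 in block 2. Ctrl cells numbered 46, 46, 44, 40, 37 and 26 in runs 1 to 6, and treated cells 46, 46, 39, 47, 30 and 36. Sex differed between the treatments. By reads, 0 treated cells of block 1 were Xist-positive, which allows a share of up to 1.69%, and all but 19 were Y-positive. Of those of block 2, 61 were Xist-positive and 0 Y-positive, which allows up to 4.55%, and Ctrl cells of both blocks were of both kinds. These limits take each cell as a draw, and their cells include the 19 and 5 treated cells called neither.

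DNA replication is prepared in G1, when the origin recognition complex, Cdc6 and Cdt1 load the MCM helicase onto DNA as an inactive ring. At the start of S phase, cyclin E with Cdk2 and other kinases help Mcm10, Cdc45 and the GINS complex to turn that ring into a moving helicase, behind which primase, polymerases, the sliding clamp Pcna and its loader copy the strands. Many of these genes are transcribed under E2F factors, which pocket proteins of the Rb family hold back until G1 cyclin kinases act. Mki67 and Top2a, the cell cycle markers used for comparison, are transcribed mostly later, from S phase through G2 and mitosis. In the AGM, emerging blood clusters are known to cycle more than the endothelium around them.

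The promoters of the genes were searched for an E2F motif, because most of the list is known to be transcribed under E2F. RefSeq promoter windows on build GRCm38.p6, from 250 bases before the annotated start to 50 after it, were found for 32 of the 39 genes, as 38 windows of 300 bases. Rfc2, Mcm4, Gins2, Ccne2, Pole, Tipin and Gins1 were not matched. The letters searched were TTTCCCGC, TTTCGCGC, TTTGCCGC and TTTGGCGC on both strands. At least 1 match lay in 12 of the 38 windows (31.6%), each of another gene, against 2.26% of 32851 windows of all genes and 4.05% of windows of measured genes. The CCAAT box, searched as CCAAT, lay in 57.9% of the windows against 37.4% of all and 37.9% of windows of measured genes. The cell cycle homology region, searched as TTTGAA and known from genes of G2 and mitosis, lay in 4 of the 38 windows (10.5%) against 17.9% of all. Among windows of measured genes the share was 12.2%, close to that of the list. Matches describe these letters only and show no binding.

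The windows with the most E2F matches are shown because they carry this feature most densely, and all but Rfc3, a subunit of the clamp loader, belong to the MCM helicase. Each is printed 5′ to 3′ on the strand of its gene, with E2F matches in capitals. Mcm6 (chr1:128359656-128359955, minus strand) had 3 matches, starting at -110, -106 and -47 from the start, the first 2 overlapping. Mcm3 (chr1:20820263-20820562, minus strand), at 20 and 39 after the start, also had the highest level per length of exon in the list. Mcm5 (chr8:75109259-75109558, plus strand) had 2 overlapping matches at -153 and -149. Mcm7 (chr5:138171834-138172133, minus strand) had them at -165 and 17, and Rfc3 (chr5:151651159-151651458, minus strand) at -10 and 1.
Mcm6: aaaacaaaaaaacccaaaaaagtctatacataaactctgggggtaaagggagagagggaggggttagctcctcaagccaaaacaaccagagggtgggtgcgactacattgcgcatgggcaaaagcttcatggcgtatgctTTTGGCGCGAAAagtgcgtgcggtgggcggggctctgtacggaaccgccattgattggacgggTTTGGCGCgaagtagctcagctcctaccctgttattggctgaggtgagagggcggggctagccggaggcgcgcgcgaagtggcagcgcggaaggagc
Mcm3: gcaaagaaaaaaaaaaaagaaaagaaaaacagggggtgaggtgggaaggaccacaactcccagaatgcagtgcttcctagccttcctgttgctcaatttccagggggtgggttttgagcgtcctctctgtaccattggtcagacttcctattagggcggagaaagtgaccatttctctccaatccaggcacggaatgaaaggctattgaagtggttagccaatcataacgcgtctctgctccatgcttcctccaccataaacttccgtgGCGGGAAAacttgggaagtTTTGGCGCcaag
Mcm5: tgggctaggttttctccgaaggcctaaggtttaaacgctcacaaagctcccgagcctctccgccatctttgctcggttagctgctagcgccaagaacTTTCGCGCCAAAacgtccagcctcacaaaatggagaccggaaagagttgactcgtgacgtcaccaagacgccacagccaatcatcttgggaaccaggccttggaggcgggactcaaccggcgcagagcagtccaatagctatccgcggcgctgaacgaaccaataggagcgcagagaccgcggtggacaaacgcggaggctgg
Mcm7: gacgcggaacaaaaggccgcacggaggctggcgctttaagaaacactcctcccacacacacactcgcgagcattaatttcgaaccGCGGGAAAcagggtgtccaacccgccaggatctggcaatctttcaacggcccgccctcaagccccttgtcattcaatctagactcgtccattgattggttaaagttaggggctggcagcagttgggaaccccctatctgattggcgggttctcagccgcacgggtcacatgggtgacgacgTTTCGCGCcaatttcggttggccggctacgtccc
Rfc3: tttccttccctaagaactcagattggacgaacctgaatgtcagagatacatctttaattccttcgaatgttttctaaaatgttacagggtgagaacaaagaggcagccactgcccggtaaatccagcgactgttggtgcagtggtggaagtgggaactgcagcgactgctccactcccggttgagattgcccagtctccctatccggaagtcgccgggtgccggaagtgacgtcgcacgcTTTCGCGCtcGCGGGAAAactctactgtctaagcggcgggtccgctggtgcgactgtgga
The windows of Mcm2 and of the other annotated start of Mcm7 had no match. Single matches lay in windows of Cdc6, Cdt1, Hells, Lig1, Pola1, Pold1 and Uhrf1.

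Across all cells, 33 of the 39 genes were higher in aDll4-treated cells than in Ctrl by the log2 ratio of summed CPM, with 1 CPM added to both, where 52.2% of all measured genes were. The median ratio was 0.15, against 0.012 for all measured genes, so the differences were small. Past a log2 ratio of 0.322 in size, the line used here for single genes, 5 genes were higher, namely Ccne1, Cdc6, Chaf1a, Ccne2 and Hells, where 11.9% of measured genes were. On this higher side the share of the list was close to that of all measured genes. None of the 39 was lower by that much (0 genes), where 13.4% of measured genes were. Among genes read in at least 20% of cells, which includes all 39, these background shares were 52.6%, 8.58% and 10.7%. The genes below 0 were Mcm6, Cdc45, Pola2, Rfc3, Rfc5 and Fen1, and Pold1 lay at 0.00. By the mean over cells of log2(CPM + 1), which weights each cell equally, 36 genes had a higher value under treatment, and the median difference was 0.40. The share of cells with a read was higher for 36 genes, and for 35 after each cell was thinned to 120000 reads. For these measures no share of all measured genes was taken, so the counts cannot be set against a background. In summed levels, more cells with a transcript and more transcript per cell cannot be told apart.

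The 33 genes did not point one way throughout the library numbers. In block 1, 31 genes were above 0 (51.2% of measured genes), with a median of 0.17, and in block 2, 23 were (52.4%), with a median of 0.079. Above 0 in both blocks were 20 genes. By run, genes above 0 numbered 37 in run 1 (52.5% of measured genes), 31 in run 2 (48.5%), 6 in run 3 (49.2%), 27 in run 4 (53.6%), 18 in run 5 (49.3%) and 31 in run 6 (55.2%). Medians by run were 0.56, 0.27, -0.29, 0.25, -0.030 and 0.23. No gene of the 39 was above 0 in all 6 runs, and 12 were in 5 of them. The share of all measured genes above 0 in both blocks, or in 5 or 6 runs, was not taken. Run 3 stood apart, and without it 35 genes were above 0 with a median of 0.20. Without run 1, 26 were, with a median of 0.11.

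**Figure D1:**
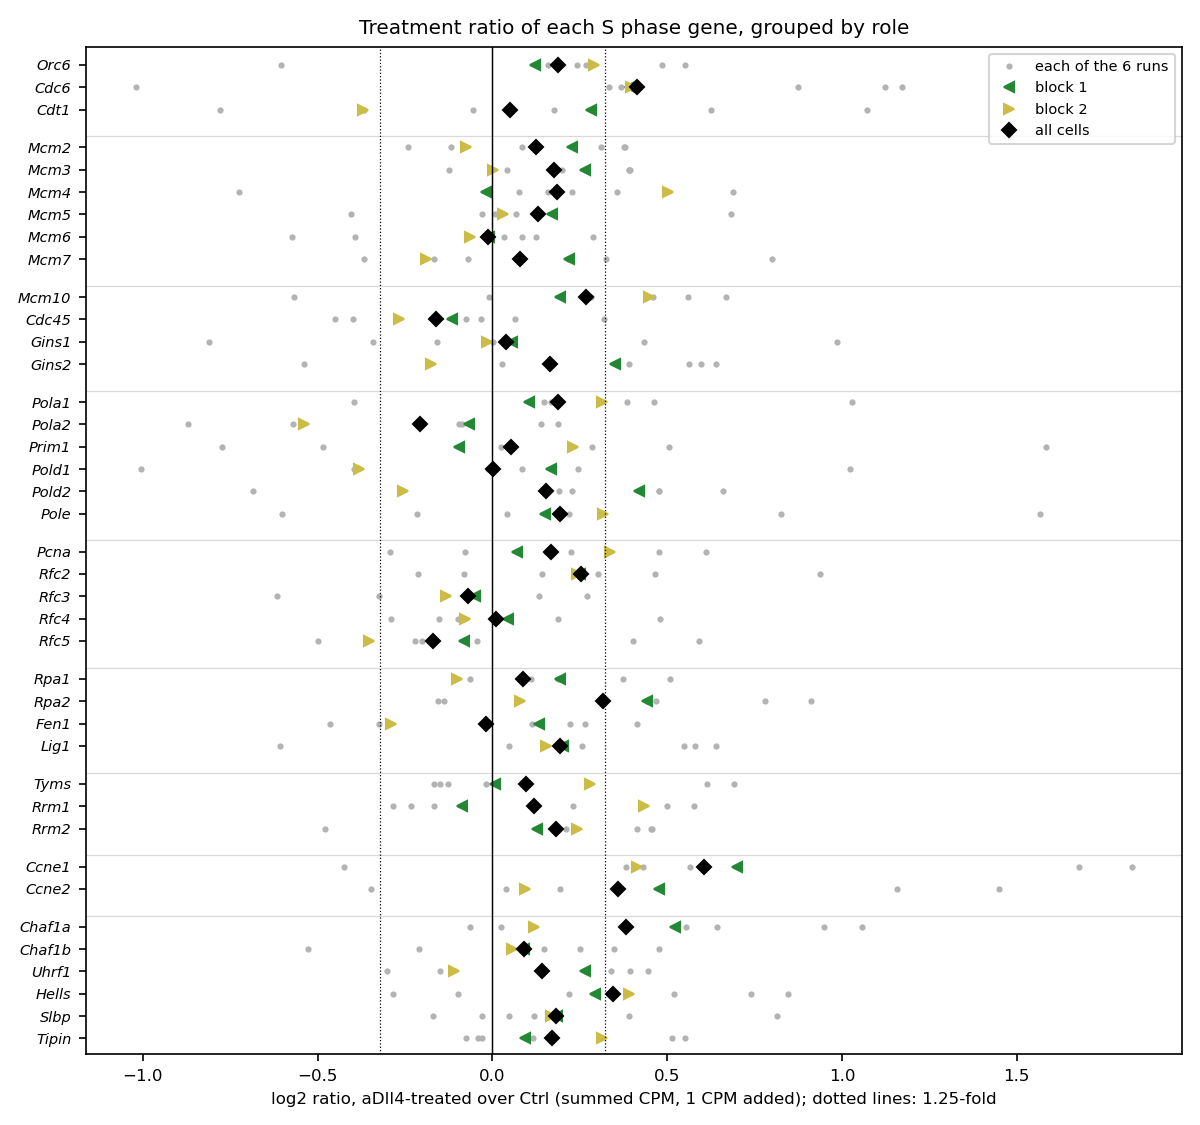
Log2 ratio of aDll4-treated over Ctrl summed CPM (horizontal axis, 1 CPM added) for each of the 39 genes (vertical axis), grouped by role in the order of the text. Black diamonds are all cells, triangles the 2 blocks and grey points the 6 runs, and dotted lines mark 0.322 either way; 33 diamonds lie above 0 and 5 past the upper line, while the grey points of every gene lie on both sides of 0.

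The sex of the cells moved with some of these ratios. Among Y-positive cells of block 1 (77 of them Ctrl), 33 genes were above 0 (54.5% of measured genes) and the median was 0.29. Among Xist-positive cells of block 2 (25 and 61), 27 were (55.1%), with a median of 0.076. Without any treatment, Ctrl Xist-positive over Y-positive cells gave 27 genes above 0 (52.6%) with a median of 0.083 in block 1. In block 2 the same contrast gave 13 genes (48.3%) with a median of -0.18. The part of sex or embryo in the treatment ratio was not tested beyond these values.

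The origin licensing genes were all higher in treated cells, where 52.2% of all measured genes were. Cdc6, which loads the MCM ring (ENSMUSG00000017499, chr11:98907801-98923940 on mm10), had 37.5 CPM in Ctrl (95% Poisson interval 36.7 to 38.3) and 50.3 CPM in the treated group (49.4 to 51.3). Such intervals hold the error of counting alone, since reads copied by PCR are not separate molecules. Per cell, the lowest and the median value of Cdc6 were 0 CPM in both treatments, and the highest was 652 CPM in Ctrl and 745 CPM in the treated group. It was thus detected in a minority of cells, 40.2% in Ctrl (33.9 to 46.7%, Clopper-Pearson) against 48.4% under treatment (41.9 to 54.8%), and these intervals overlap. The log2 ratio was 0.42, with 0.39 and 0.40 in the 2 blocks, and it was above 0 in 5 of 6 runs but -1.02 in run 3. Its RNA shares long stretches with the processed pseudogene Gm9430 (95.2% identical over 1523 bases), itself at 3.32 and 4.44 CPM, so reads may be split between them. Orc6, a subunit of the origin recognition complex, had a ratio of 0.19 and stood above 0 in both blocks. Cdt1, which brings MCM to origins, had 0.049, with 0.28 in block 1 and -0.37 in block 2.

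The MCM helicase genes were abundant per length of exon, between 32.4 and 96.3 CPM per kb over all cells, and all 6 were read in at least 88.6% of cells. Mcm3 was the highest of the 39 genes at 96.3 CPM per kb. Its summed level came to 339 CPM in Ctrl (337 to 342) and 384 CPM in the treated group (381 to 386). Per cell it ran from 0 CPM over a median of 256 to 1617 CPM in Ctrl, and from 0 over 321 to 1698 CPM in treated cells, so the groups overlapped almost wholly. The ratio was 0.18 (0.26 and 0.00 in the blocks). Mcm6, at 79.2 CPM per kb, was the MCM gene with no higher level in treated cells, at 371 CPM in Ctrl (369 to 374) and 368 CPM in the treated group (365 to 371). Its ratio of -0.012 lay close to 0. It was below 0 in both blocks but above 0 in 4 of 6 runs, and 0.020 without its highest cell. Y-positive cells of block 1 gave Mcm6 0.29 and Xist-positive cells of block 2 gave 0.096. Its median cell held 270.2 CPM in Ctrl and 244.1 CPM in the treated group, with highest cells at 3464 and 2055 CPM. Its mean log2(CPM + 1) differed by -0.12, the lowest difference of the list, on means of 7.05 ± 2.89 and 6.93 ± 2.94 (SD over the cells of each treatment). Mcm5, at 69.9 CPM per kb, was at 267 and 292 CPM, with a ratio of 0.13 and median cells of 157.5 and 183.6 CPM. The ratios of Mcm2, Mcm4 and Mcm7 were 0.13, 0.19 and 0.078. Over the blocks the group did not keep 1 direction, since Mcm4 had -0.02 and 0.50 and Mcm7 had 0.22 and -0.19.

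Among the helicase activators, Mcm10, which acts as the helicase starts, had a ratio of 0.27 (0.19 and 0.45 in the blocks). Cdc45, a subunit of the moving helicase, had 91.5 CPM in Ctrl and 81.6 CPM in the treated group, a ratio of -0.16 (-0.11 and -0.27). The GINS subunits Gins1 and Gins2 had 0.038 and 0.17. Most exon bases of Gins2 (67.3%) overlap exons of Gse1 on the other strand, and the libraries do not mark strand, so reads of the pair cannot be told apart.

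Polymerase and primase genes spread to both sides. Pola2, the regulatory subunit of the polymerase that makes primers, was lowest of the list by ratio, at 78.7 CPM in Ctrl (77.5 to 79.9) and 68.1 CPM in the treated group (67.02 to 69.2), a ratio of -0.21. Its median cell held 46.04 and 44.4 CPM, and the ratio was -0.07 in block 1, -0.54 in block 2 and below 0 in 4 of 6 runs. Pole, the catalytic subunit of the leading-strand polymerase, was among the least abundant per length (4.00 CPM per kb). It had 41.6 CPM in Ctrl and 47.7 CPM in the treated group, with median cells of 1.60 and 6.44 CPM and a ratio of 0.19. Among Xist-positive cells of block 2 Pole had 1.32, and Ctrl Xist-positive over Y-positive cells of that block gave -1.41. Pola1, Prim1 (primase), Pold1 and Pold2 (subunits of the lagging-strand polymerase) had ratios of 0.19, 0.053, 0.00 and 0.15.

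The clamp Pcna had 107.8 CPM in Ctrl and 121.2 CPM in the treated group, a ratio of 0.17 (0.07 and 0.34), and was read in 95.9% of all cells. Its processed pseudogene Pcna-ps2, 99.2% identical over 781 bases, was counted at 104.8 and 114.3 CPM, about as high as Pcna itself, so the level of Pcna alone is uncertain. Of the clamp loader, Rfc2 had 0.25, Rfc3 -0.069 and Rfc4 0.010. Rfc5 had 71.2 CPM in Ctrl (70.1 to 72.4) and 63.3 CPM in the treated group (62.2 to 64.3), a ratio of -0.17. Its median cell held 37.8 and 27.4 CPM, and both blocks were below 0 (-0.08 and -0.35). Rfc5 shares sequence with the pseudogene Gm12870 and exon bases with Wsb2 (10.7%), Rfc2 with Lat2 (15.1%) and Rfc4 with Eif4a2 (12.7%).

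Of the genes for single-strand binding and joining, Rpa2, a subunit of the protein that coats unwound DNA, differed most in mean log2(CPM + 1), with 4.84 ± 3.26 in Ctrl and 5.54 ± 3.11 in treated cells (SD over cells), a difference of 0.70. Its summed level was 133.7 CPM (132.2 to 135.2) and 166.6 CPM (164.9 to 168.3), a ratio of 0.316 that lay just short of the line of 0.322, with Hells at 0.34 just past it. The median cell held 75.1 CPM in Ctrl and 117.9 CPM in the treated group, the highest 882 and 845 CPM. In the blocks Rpa2 had 0.44 and 0.08, and in Ctrl Xist-positive over Y-positive cells 0.46 and -0.32. Rpa1 and the ligase gene Lig1 had 0.087 and 0.19. Fen1, the flap endonuclease that trims Okazaki fragments, was the lowest of the 39 genes per length, at 2.23 CPM per kb. It had 5.45 CPM in Ctrl and 5.37 CPM in the treated group, with median cells of 0 CPM, highest cells of 139.96 and 56.9 CPM, and a ratio of -0.018. Of its exon bases, 78.8% overlap the antisense gene Gm10143, and the part of the counting of shared bases in this low level was not tested.

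The nucleotide supply genes were higher by small amounts, where 52.2% of all measured genes were higher. Rrm2, the regulated subunit of ribonucleotide reductase, which makes deoxynucleotides, was at 86.1 CPM per kb. Its summed level came to 223.5 CPM in Ctrl (221.6 to 225.5) and 254 CPM in the treated group (252 to 256), with median cells of 113.8 and 120.8 CPM, highest cells of 1555 and 1318 CPM and a ratio of 0.18. It was above 0 in 5 of 6 runs. Tyms (thymidylate synthase) and Rrm1, the other reductase subunit, had 0.095 and 0.12, and Rrm1 was below 0 in block 1 (-0.09) and above it in block 2 (0.43).

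The E cyclins had the largest ratios of any role, with a median of 0.48. Ccne1 (ENSMUSG00000002068, chr7:38097984-38107534 on mm10), which drives S phase entry with Cdk2, had 26.02 CPM in Ctrl (25.4 to 26.7) and 40.1 CPM in the treated group (39.2 to 40.9). Its ratio was 0.60, the largest of the 39, with 0.70 and 0.41 in the blocks and -0.43 in run 3. The share of cells with a read differed less than the level. The median cell was at 0 CPM in both treatments, the highest was 303 CPM in Ctrl and 556 CPM in the treated group, and a read was found in 35.1% in Ctrl (29.1 to 41.6%) against 37.7% under treatment (31.6 to 44.1%). Ccne2 (ENSMUSG00000028212, chr4:11191351-11204779) was at 24.8 CPM (24.2 to 25.5) and 32.1 CPM (31.4 to 32.9), a ratio of 0.36. Here the share of cells differed more, 37.7% in Ctrl (31.5 to 44.1%) against 47.1% under treatment (40.7 to 53.6%), with highest cells of 390.2 and 408 CPM. The blocks gave 0.48 and 0.09, and in the same-sex comparisons 1.22 among Y-positive cells of block 1 and -0.49 among Xist-positive cells of block 2. Ctrl Xist-positive over Y-positive cells gave Ccne2 ratios of 1.10 and 1.33, larger than the treatment ratio over all cells. Of its exon bases, 17.4% overlap Ints8.

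All 6 genes of replication-coupled chromatin and fork protection were higher in treated cells, where 52.2% of all measured genes were. Chaf1a (ENSMUSG00000002835, chr17:56040439-56072289), the large subunit of the factor that places histones behind the fork, had 36.8 CPM in Ctrl (35.99 to 37.6) and 48.2 CPM in the treated group (47.3 to 49.1). Its ratio was 0.38 (0.52 and 0.12 in the blocks), with median cells of 3.86 and 9.70 CPM and highest cells of 372 and 451 CPM. Exons of Ubxn6 cover 52.5% of its exon bases from the other strand, and Ubxn6 itself had a ratio of -0.011. Hells (ENSMUSG00000025001, chr19:38930915-38971051), a chromatin remodeller needed for DNA methylation, was at 69.2 CPM (68.2 to 70.3) and 88.2 CPM (86.9 to 89.4). Its ratio of 0.34 held in both blocks (0.29 and 0.39) and was above 0 in 4 of 6 runs. Its median cell had 20.2 CPM in Ctrl and 55.1 CPM in the treated group, and the highest cells were at 495 and 728 CPM. Uhrf1, which brings the maintenance methyltransferase to new DNA, had a ratio of 0.14 (0.26 and -0.11 in the blocks). Its difference in mean log2(CPM + 1) was 0.67, from 5.31 ± 2.95 to 5.98 ± 2.63 (SD over cells). Its median cell was at 86.97 and 116.3 CPM and its summed level at 145.5 and 160.8 CPM, while its pseudogene Gm5648 (98.3% identical) was at 34.4 and 40.7 CPM. Tipin, a fork protection gene, stood between Mcm3 and Rrm2 in level per length, with 160.1 CPM in Ctrl and 180.3 CPM in the treated group. The ratio of Tipin was 0.17, above 0 in 3 of 6 runs. Slbp, which binds histone mRNA, had 0.18 and Chaf1b 0.091.

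To follow the genes in single cells, a score was taken as the mean of log2(CPM + 1) over the 39 genes in each cell. It ran from 0.71 over a median of 4.51 to 7.64 in Ctrl and from 0.58 over 4.84 to 7.80 in treated cells, so the treatments overlapped over nearly the whole range. The mean was 4.46 ± 1.67 and 4.83 ± 1.63 (SD over cells). The difference of 0.37 was smaller than the SD of this difference over the 6 runs, 0.47. By run it was 0.68, 0.72, -0.25, 0.28, -0.037 and 0.94, and it was 0.36 in block 1 and 0.41 in block 2. Thinned cells gave 0.40. Among Y-positive cells of block 1 it was 0.66, and among Xist-positive cells of block 2 it was 0.29. Scores above 6.00, the upper quartile, were found in 20.9% of Ctrl (15.9 to 26.6%) against 29.1% of treated cells (23.5 to 35.2%). Scores below 3.46, the lower quartile, were found in 29.3% (23.6 to 35.5%) against 20.9% (15.98 to 26.5%). All of these intervals overlap between treatments, but they take each cell as a draw within its treatment and are no test of the treatments.

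**Figure D2:**
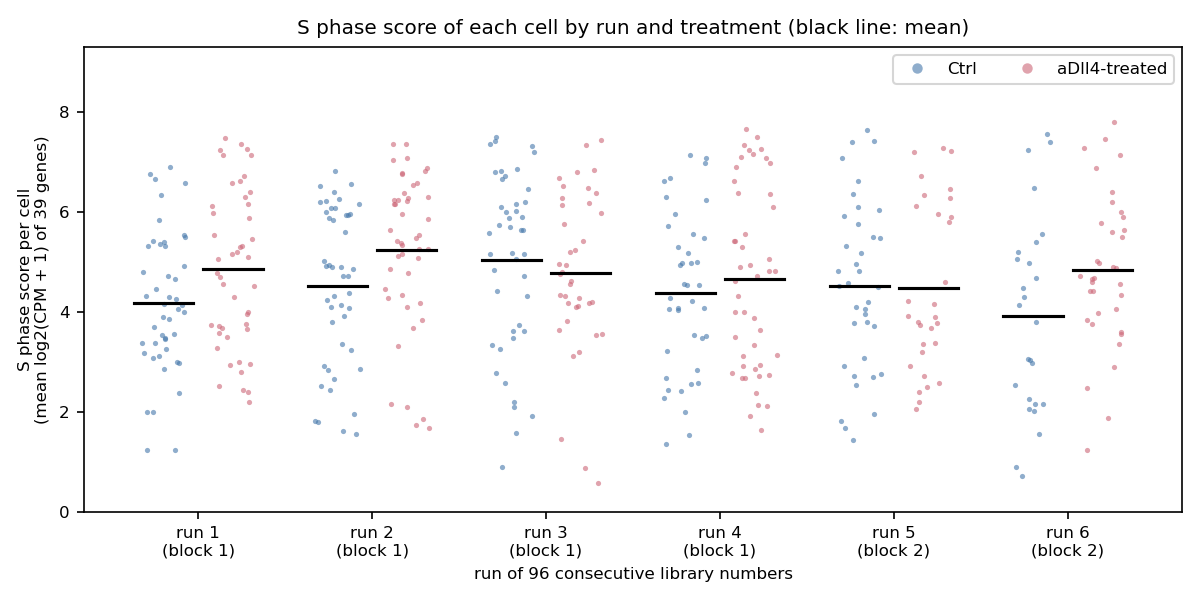
S phase score of each cell (vertical axis, mean log2(CPM + 1) of 39 genes) by run of library numbers (horizontal axis), blue for Ctrl and red for aDll4-treated, with a black line at each mean. Treated means lie above Ctrl means in runs 1, 2, 4 and 6 and below them in runs 3 and 5, and points of both treatments span the range in every run.

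The genes moved together from cell to cell. Over all cells, the Spearman correlation of 2 genes had a median of 0.31 over 741 pairs (0.30 in thinned cells), and every pair was above 0, from 0.090 to 0.62 for Pcna with Rrm2. Against the mean of the other 38 genes, Pcna (0.73), Rrm2 (0.72), Orc6 (0.64), Prim1 (0.64) and Mcm5 (0.64) were closest, and Rfc3 (0.37) and Pola2 (0.39) least close. The cells share depth as well. The score had a correlation of 0.34 with total reads, and 0.33 after thinning.

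Genes outside the list with the most similar pattern over the same cells were sought among 11022 genes read in at least 20% of cells. Among the 10 closest to the score were Pcna-ps2 (Spearman 0.75), Dut (0.69), Tk1 (0.63), Gmnn (0.62), Dek (0.62), Gm9430 (0.61), Gm5648 (0.60) and Dnajc9 (0.59). Dut and Tk1 serve deoxynucleotide supply, Gmnn encodes the Cdt1 inhibitor geminin, and Dek and Dnajc9 encode chromatin proteins. Pcna-ps2, Gm9430 and Gm5648 are the near copies of Pcna, Cdc6 and Uhrf1 named above, which can take reads of those genes. The treatment ratios of Dut, Tk1, Gmnn and Dnajc9 were 0.13, 0.22, 0.12 and 0.18, and that of Dek was -0.0091.

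Against the Mki67 and Top2a level of the same cell, the mean log2(CPM + 1) of that pair, the genes fell into a graded order. The score itself had a Spearman correlation of 0.42 with this level over all cells (0.42 in thinned cells), 0.42 in block 1 and 0.41 in block 2. It was 0.49 in Ctrl, 0.33 in treated cells and 0.44 in clusters 1 to 3, but 0.061 over the 53 cells of clusters 6 and 7. Cluster 5 gave 0.41 over 13 cells, and cluster 4 had the opposite sign, -0.50 over 22 cells (-0.52 in thinned cells). Single genes ran from -0.063 to 0.43. Highest were Rrm2 (0.43), Mcm10 (0.43), Rrm1 (0.41), Cdc45 (0.41) and Prim1 (0.40), and 6 genes were below 0.1, namely Mcm6 (-0.063), Ccne2 (-0.010), Mcm2 (0.019), Ccne1 (0.036), Mcm4 (0.078) and Rfc2 (0.090). Yet Mcm6, Mcm2 and Mcm4 were at 0.52, 0.52 and 0.61 with the mean of the other genes, and Ccne1 and Ccne2 at 0.44 and 0.42. By role, the median was 0.013 for E cyclins and 0.090 for the MCM helicase. It was 0.22 for chromatin and fork protection, 0.24 for licensing and for polymerases, and 0.25 for single-strand binding and joining. The clamp and its loader had 0.28, helicase activation 0.35 and nucleotide supply 0.41. Single genes of different roles overlapped, with -0.063 to 0.31 in the MCM helicase and 0.12 to 0.43 in helicase activation.

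The levels behind these values show which genes were present in cells with little Mki67 and Top2a. In the 64 cells with a level of at most 2, the median cell held 249 CPM of Mcm6 and 140.1 CPM of Mcm2, but 1.28 CPM of Rrm2 and 0 CPM of Mcm10, Cdc45 and Prim1. Mcm6 was read in 85.9% of those cells, Mcm2 in 92.2%, Rrm2 in 71.9%, Cdc45 in 32.8% and Mcm10 in 14.1%. The other MCM genes were not all as high there, with medians of 20.5 CPM for Mcm5 and 47.1 CPM for Mcm7, the latter read in 73.4% of the cells. In the 81 cells with a level between 6 and 8, the median cell held 340.1 CPM of Mcm6, 409 CPM of Mcm2, 199.5 CPM of Rrm2 and 69.1 CPM of Cdc45. In cells above 8 it held 229.8 CPM of Mcm6, 213.8 CPM of Mcm2, 201.8 CPM of Rrm2 and 77.8 CPM of Cdc45. From the range between 6 and 8 to that above 8, the mean log2(CPM + 1) of Ccne2 was lower by 1.15, of Ccne1 by 0.85, of Mcm6 by 0.84 and of Mcm2 by 0.70, while that of Rrm2 was higher by 0.59, of Pola1 by 0.57 and of Pold2 by 0.52. Among these, Pola1 was higher in both treatments (0.59 in Ctrl and 0.53 in treated cells), while Rrm2 had 1.24 in Ctrl and -0.032 in treated cells and Pold2 1.39 and -0.35. For Mcm2, Mcm3, Mcm4, Mcm6 and Ccne2 the step was below 0 in Ctrl, in treated cells, in thinned cells and in clusters 1 to 3. The same held for Mcm5 and Rrm1, though only by -0.021 and -0.022 in Ctrl. Mcm7 went the other way, with a step of 0.31 over all cells (1.16 in Ctrl and -0.52 in treated cells). For Ccne1 it was 0.10 in Ctrl and -1.79 in treated cells.

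**Figure D3:**
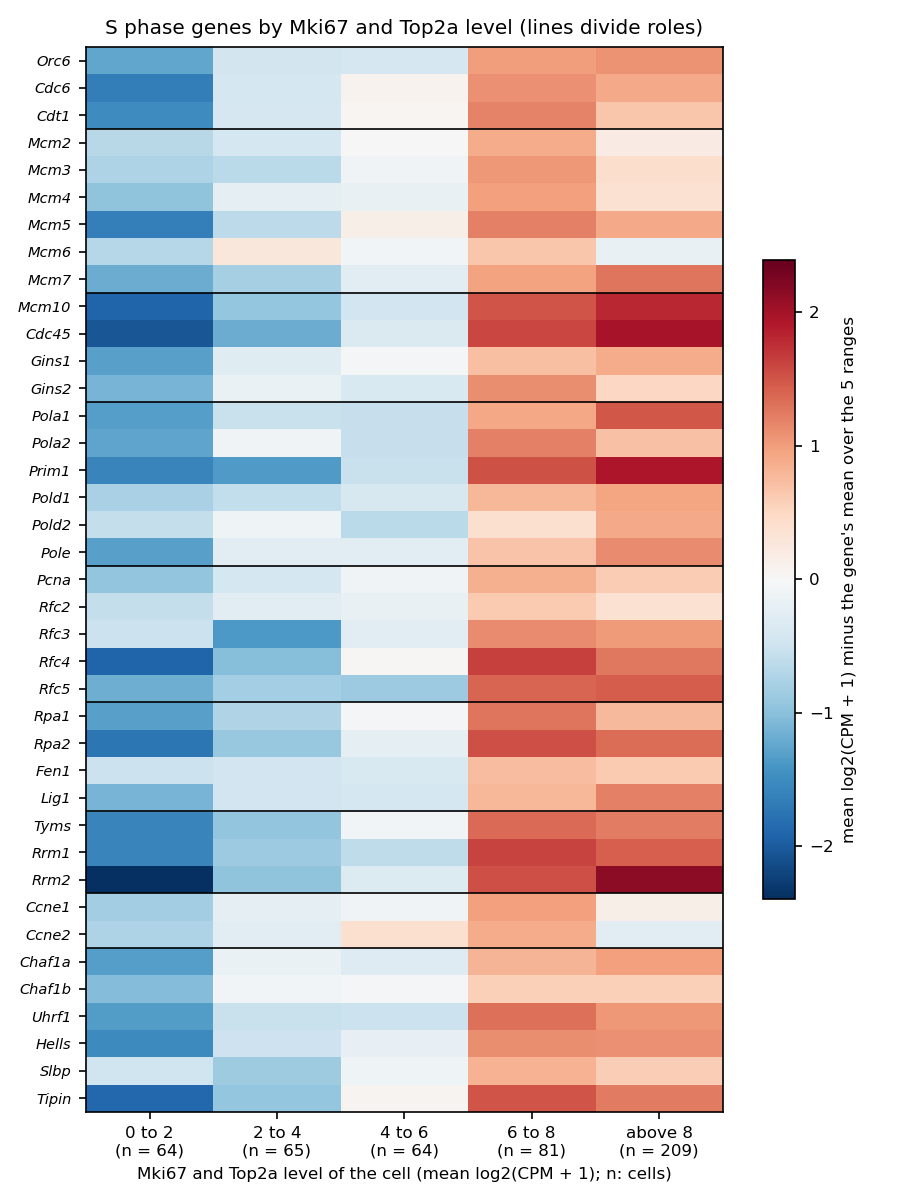
Mean log2(CPM + 1) of each of the 39 genes (rows, divided by role) in cells grouped by their Mki67 and Top2a level (columns, with the number of cells), as the difference from the gene's own mean over the 5 columns (colour). Rrm2, Cdc45, Prim1 and Mcm10 go from deepest blue to deepest red, while Mcm2, Mcm6 and the E cyclins are highest between 6 and 8 and paler above 8.

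Over all 39 genes, 24 were lower above 8 than between 6 and 8, and 15 were higher. In thinned cells 21 were lower and 18 higher, and in clusters 1 to 3 the balance turned, with 18 lower and 21 higher (median step 0.050). It also differed between treatments, with 10 genes lower in Ctrl (median step 0.35) and 36 lower in treated cells (median step -0.59). The score of treated minus Ctrl cells was 0.14 at a level up to 2, 0.24 from 2 to 4, 0.86 from 4 to 6, 0.85 from 6 to 8 and -0.13 above 8, where 94 Ctrl cells and more treated cells lay, with means of 5.34 ± 1.23 and 5.21 ± 1.40 (SD over cells). In the range from 6 to 8 the means were 4.98 ± 1.57 (41 Ctrl cells) and 5.83 ± 1.55 (40 treated cells). The Mki67 and Top2a level itself was higher in treated cells by 0.49, by 0.22 in block 1 and by 1.24 in block 2. By run it differed by 1.55, 0.22, -0.44, -0.46, -0.47 and 3.05, so 3 of 6 runs lay below 0, and within block 2 run 5 was below 0 and run 6 above it. The summed CPM of Mki67 and Top2a had log2 ratios of -0.0039 and 0.077.

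**Figure D4:**
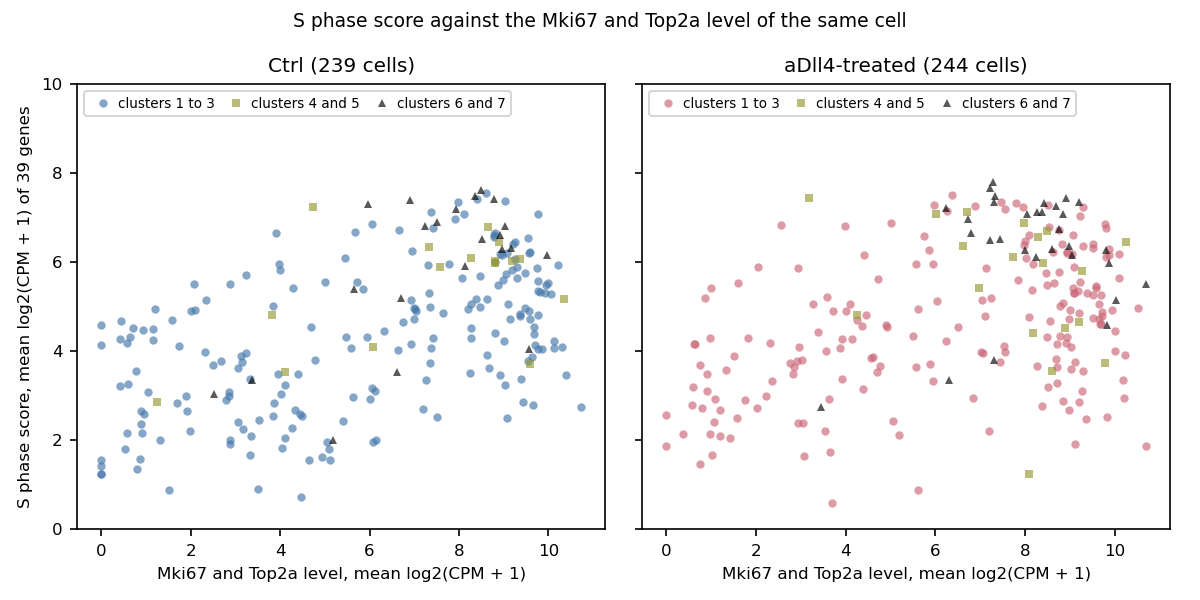
S phase score of each cell (vertical axis, mean log2(CPM + 1) of 39 genes) against its Mki67 and Top2a level (horizontal axis, mean log2(CPM + 1)), Ctrl on the left and aDll4-treated on the right, with symbols for clusters. Low levels go with low to middle scores, cells with high levels span nearly all scores, and triangles of clusters 6 and 7 lie mostly at the top.

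Cut at the medians of both measures (4.72 for the score and 7.29 for the level), cells with both at or below the median were 40.2% of Ctrl (33.9 to 46.7%) against 29.5% of treated cells (23.9 to 35.7%). In block 1 these shares were 37.5% and 28.1%, and in block 2 they were 47.6% and 33.3%. Cells with both above made up 33.5% and 35.7%, cells with only the score above 13.4% and 17.2% (13.1% and 19.7% in block 1, but 14.3% and 10.6% in block 2), and cells with only the level above 12.97% and 17.6%. These are ranges and not cell types, and 51 cells lay within 0.25 of the score's cut and 29 within 0.25 of the level's.

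By cluster, the score was highest in clusters 6 and 7, the cells with hematopoietic markers. The clusters were built on these same cells, so this is a description. Means were 4.32 ± 1.49 in cluster 1, 4.58 ± 1.60 in cluster 2 and 4.03 ± 1.68 in cluster 3, then 5.77 ± 1.43 in cluster 4, 5.01 ± 1.33 in cluster 5, 6.33 ± 1.27 in cluster 6 and 5.89 ± 1.68 in cluster 7 (SD over cells). Neighbours in this order overlapped widely. Clusters 6 and 7 lay above clusters 1 to 3 by 1.80, more than the SD of that difference over runs, 0.53. Clusters 2 and 3 differed from cluster 1 by 0.26 and -0.30, less than their SD over runs of 0.39 and 0.42. Such SDs are the spread of single runs and not the error of a difference over all cells. By run, cluster 2 minus cluster 1 ran from -0.15 to 0.87. Cluster 3 minus cluster 1 was 0.18 in run 5 and below 0 in every other run, down to -1.03 in run 6. The sign for cluster 3 turned to 0.34 when the summed CPM of the genes was taken before the log. Total reads were lower there, with a median of 669599 against 931920 in cluster 1.

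In summed CPM, 25 of the 39 genes were highest in cluster 6, 9 in cluster 4, 4 in cluster 7 and 1 in cluster 3, and 25 were lowest in cluster 1. Cdc6 was at 30.2 CPM in cluster 1, 38.98 in cluster 2 and 44.4 in cluster 3, against 105.5 in cluster 6 and 81.7 in cluster 7. Cdt1 was at 262 CPM in cluster 6 against 77.4 CPM in cluster 1, and Ccne1 at 91.1 against 20.9 CPM. Rrm2 did not follow this order, with 407 CPM in cluster 4, 341 CPM in cluster 6 and 217.9 CPM in cluster 7. Pola1 and Rfc2 were highest in cluster 7, at 170.96 and 405 CPM. The 9 genes highest in cluster 4 were Gins2, Pole, Rfc3, Lig1, Rrm1, Rrm2, Chaf1a, Uhrf1 and Hells, while all 3 licensing genes and all 6 MCM genes were highest in cluster 6.

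**Figure D5:**
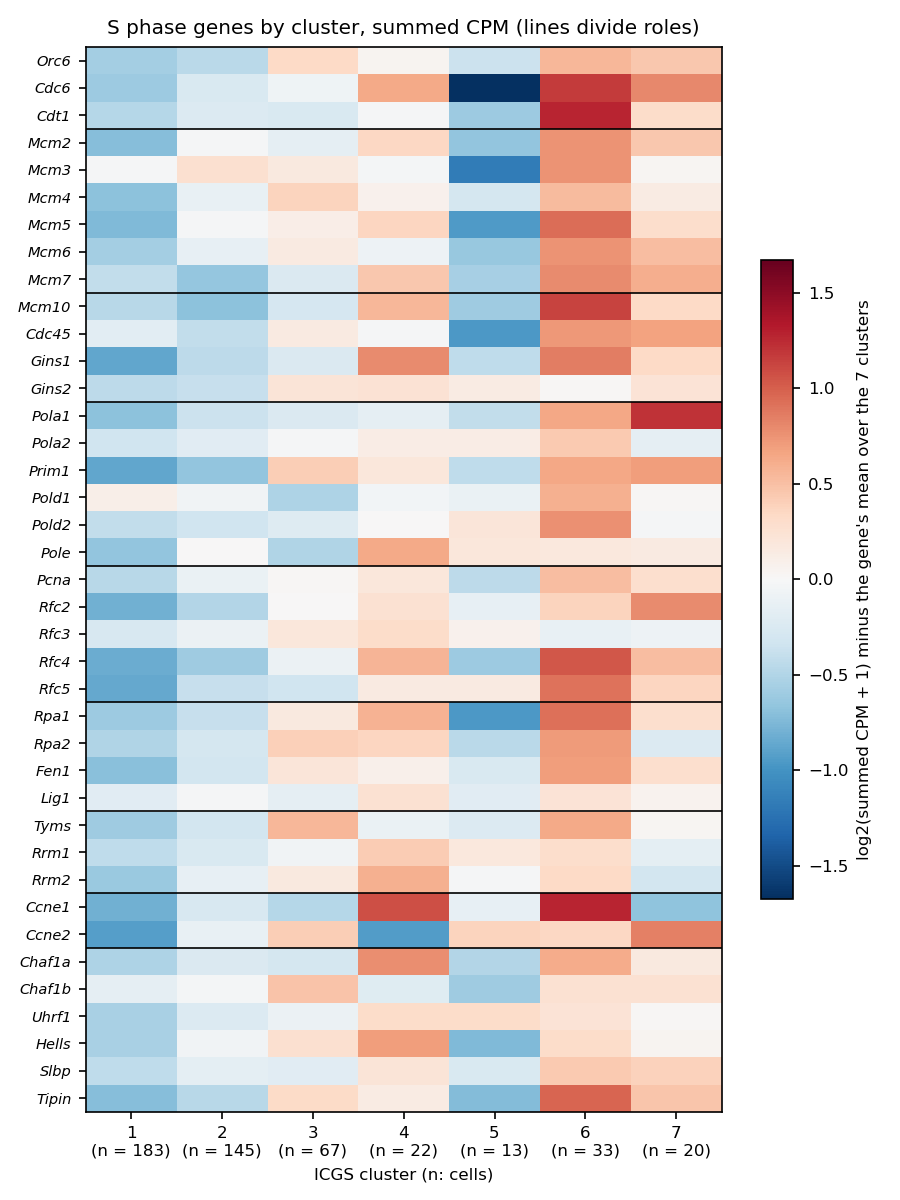
Log2(summed CPM + 1) of each of the 39 genes (rows, divided by role) in the 7 ICGS clusters (columns, with the number of cells), as the difference from the gene's own mean over clusters (colour). Cluster 6 is highest for 25 genes and cluster 1 lowest for 25, and Rrm2, Chaf1a and Hells are highest in cluster 4.

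Within clusters the treatment ratio was uneven. In cluster 1, 21 of the 39 genes were above 0 (48.1% of measured genes), in cluster 2, 29 were (51.6%), and in cluster 3, 32 were (51.7%), with medians of 0.055, 0.12 and 0.41. Over clusters 1 to 3 together 29 were (50.2%), with a median of 0.14. In clusters 6 and 7, with 22 Ctrl and 31 treated cells, 11 were (51.1%) and the median was -0.11. Score differences were 0.16, 0.36 and 0.56 in clusters 1, 2 and 3, and 1.07 in cluster 6 (14 Ctrl and 19 treated cells) against -0.46 in cluster 7 (8 and 12 cells). Over clusters 6 and 7 together the score difference was 0.49, opposite in sign to the median ratio there, so the direction depended on the measure. Marker sums moved with treatment too, where 52.2% of all measured genes were higher in treated cells. All 10 endothelial markers were lower in treated cells, with a sum of 6303 CPM in Ctrl and 5355 CPM in the treated group. The 5 megakaryocyte markers were all higher (319 and 763 CPM), and 8 of 9 measured hematopoietic markers were (313 and 379 CPM). All 7 erythroid markers were higher (68.2 and 327 CPM), and of the mesenchymal markers 3 of 7 were (505 and 590 CPM). In blocks 1 and 2, median ratios were -0.27 and -0.31 for endothelial markers and 0.93 and 0.00047 for hematopoietic ones. They were 1.22 and 1.03 for megakaryocyte, 1.41 and 1.49 for erythroid and -0.77 and 1.73 for mesenchymal markers. Single hematopoietic, megakaryocyte and erythroid markers were above 0 in 2 to 5 of the 6 runs. With both treatments weighted to the same cluster shares, 26 of the 39 genes were above 0 and the median was 0.096.

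Other genes of the replication machinery, and the lists that follow, were counted in the same way, where 52.2% of all measured genes were above 0. Past the line were 11.9% of measured genes on the higher side and 13.4% on the lower side. Of 42 further replication genes, 29 had ratios above 0 and 13 below it (median 0.10, with 0.042 and 0.15 in the blocks), and their summed level per cell had a Spearman correlation of 0.91 with the score. Past the line were Wdhd1 (0.48), a fork adaptor, and Prim2 (0.36), the large primase subunit, and on the lower side Ticrr (-0.44), which helps load Cdc45, the nuclease-helicase Dna2 (-0.56) and Dscc1 (-0.56), a subunit of an alternative clamp loader. Ticrr was below 0 in all 6 runs.

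Upstream, the E2F and pocket protein genes showed no common direction, with 7 of 13 above 0 and a median of 0.046. Rbl2, the pocket protein p130, was past the line at 8.42 CPM in Ctrl and 4.23 CPM in the treated group, a ratio of -0.85 (-0.59 and -1.74 in the blocks). The activating E2f1 and E2f2 were at 0.085 and 0.26, both low in abundance. Of 13 G1 cyclins, kinases and inhibitors, 11 were measured, and 7 of them were above 0 with a median of 0.25. Past the line on the higher side were Cdkn1a (0.87), which encodes the inhibitor p21, Mycn (0.86), Cdk6 (0.66), Cdkn2d (0.54) and Myc (0.42). On the lower side were the inhibitor Cdkn1c (-0.50) and the cyclin Ccnd2 (-0.42). Cdkn1a, Mycn and Ccnd1 (0.25) were above 0 in all 6 runs, and Cdkn1c below 0 in all 6. None of the 39 S phase genes kept 1 side in all 6, and the share of all measured genes that did was not taken.

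By summed CPM, genes of G2 and mitosis leaned the other way, with 8 of 26 above 0 against 52.2% of all measured genes. Their median was -0.085 (-0.10 in block 1 and -0.025 in block 2). By mean log2(CPM + 1), Mki67 and Top2a of this list were higher in treated cells, by 0.38 and 0.60. The other genes of the list were not compared by that measure. Past the line were Kif20a (-0.41), a kinesin of cytokinesis, and the spindle checkpoint gene Bub1b (-0.33), while Cdk1 had 0.0073, Ccna2 -0.13 and Ccnb1 0.22. Of 9 genes of the DNA damage checkpoint, 5 were above 0 with a median of 0.0034. Chek2 (-0.45) and Atrip (0.71) were past the line, the latter at 0.90 and 2.12 CPM, and Chek1 was at 0.14. The difference between the S phase and the G2 and mitosis lists was not tested, since each treatment was 1 sample.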

How the data were processed

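Single cells were sequenced by Smart-Seq2 with Nextera XT libraries, per the labels' protocols, with neither molecular identifiers nor strand. The authors deposited raw read counts of 46078 genes in single cells, and no column lacked a sample (0). Reads were aligned to mm10, with GSNAP and HTSeq 0.6.0 named in the submitters' processing notes; the annotation release is not given in the sources used here. Gene-assigned reads per cell had medians of 900286 in Ctrl and 869802 in treated cells.

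Counts were summed per treatment and scaled to CPM. Each treatment is 1 sample, so no test was run. Levels carry exact 95% Poisson intervals, for the error of counting reads only. Shares carry 95% Clopper-Pearson intervals, which take each cell as a draw within its treatment. They hold no spread between samples and are no test of the treatments. Thinning drew 120000 reads per cell. A cell was called Xist-positive or Y-positive at 10 or more reads of Xist or of 4 Y-linked genes (Ddx3y, Eif2s3y, Kdm5d and Uty) and under 10 of the other. Gene positions, exon lengths and overlaps came from GENCODE M21 and promoters from RefSeq (GRCm38.p6). Near copies, of at least 95% identity over 200 bases, were found with minimap2 2.31. Genes described in full were those past a log2 ratio of 0.322 either way or on 1 side of 0 in all 6 runs, the 5 highest and 3 lowest per kb of exon, and the 3 with the largest and 3 with the smallest difference in mean log2(CPM + 1). The members, lists and rules were chosen with earlier results of these data known. Alternatives included edgeR 4.0.16 and DESeq2 1.42.0 scaling in R 4.3.3. Computation used Python 3.11.15, numpy 2.4.6, pandas 2.3.3, scipy 1.17.1 and matplotlib 3.10.9, and the ratio was tested on simulated data. Of the 10 genes nearest to the score, 2 are not reported here.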

Additional observations from a re-analysis of the deposited data

How the results depend on the processing

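No paired analysis was possible because the labels give no replicate numbers that pair samples of the treatments; differences within runs of library numbers are given as a description. The median ratio of the 39 genes stayed above 0 under the alternatives run, including TMM scaling (0.15), DESeq2 size factors (0.13), thinned cells (0.21) and equal cluster shares (0.096). Leaving out each run in turn gave medians of 0.10 to 0.20, 26 to 35 genes above 0 and score differences of 0.29 to 0.51. Genes with more than 10% of exon bases overlapped by another gene, or with a near copy, were left out in an alternative chosen after seeing the data. Of the remaining 24 genes, some with smaller overlaps, 21 were above 0. With the log2 of 1 plus summed CPM, cluster 3 minus cluster 1 turned from -0.30 to 0.34, and as a share of genes with a read it was -9.51 percentage points; the cause was not tested. The correlation of the score with the Mki67 and Top2a level was 0.33 with summed CPM, 0.49 in Ctrl and 0.33 in treated cells. Among alternative values of 16 named genes, 4 moved beyond their spread over runs and Ccne2 turned to -0.49 in Xist-positive cells of block 2. For Fen1 and the E cyclins the median cell held no read, and the part of depth in this was not tested.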
